A study of Mus musculus with 6 samples.

Results

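The Clec genes are the mouse genes whose symbol begins with Clec and a number, named for the C-type lectin domain. They were taken from a table of gene expression in mouse fat by that name alone: 34 of the 35275 rows qualified, under 33 different names, because Clec7a is listed under 2 identifiers. A gene was counted as not measured when it lay below 0.5 FPKM in 4 or more of the 6 samples. FPKM counts fragments relative to gene length and to the reads of the sample, so levels of different genes can be set side by side. By that rule 18 Clec rows were measured and 16 were not. Of the 18 measured genes, 10 were lower in the knockout tissue, 1 was higher and 7 did not pass the test.

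RNA sequencing was done on epididymal fat, a visceral depot, from male mice of the C57BL/6 strain. The diet, labelled 60% high fat, began at 2 months and lasted 10 weeks, and the labels give an age of 4.5 months at sampling. The 3 control samples carry Tfrcfl/fl, an allele flanked by loxP sites in the gene of the transferrin receptor, through which cells take up iron. The 3 knockout samples are labelled TfrcAKO, a name used for deletion in adipocytes; the labels do not spell out the abbreviation or name the Cre driver. No lean group and no group with Cre alone was analysed here. Separate animals behind the samples are not stated in the labels, so the p-values cover the spread among these libraries, which may be technical.

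C-type lectins bind sugars, lipids or proteins, often with the help of calcium. Many Clec proteins are receptors on macrophages and dendritic cells: activating members signal through Syk and Card9, either by a motif of their own or through the adaptor Fcer1g, while inhibitory members recruit phosphatases. Other members have quite different homes, among them endothelium, platelets, the extracellular matrix and natural killer cell recognition. In obese fat, macrophages are the main immune cells that carry the myeloid members.

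Depth was 25252839 to 30650624 gene-assigned reads per sample. Tfrc itself was at 11.1, 13.2 and 11.9 FPKM in the controls and 7.10, 8.27 and 9.50 FPKM in the knockouts (log2 fold change −0.52 ± 0.12, limma adjusted p = 0.0147). Without control replicate 2 or 3 that adjusted p was 0.0596 or 0.0527. The first principal component (78.3% of the variance) set controls, at −41.7 to −28.6, apart from knockouts, at 21.7, 25.2 and 60.9. Knockout replicate 3 lay furthest out on it. Of 12 macrophage markers, 11 fell. The summed level of all 12 was 5711 to 6648 FPKM in controls and 1379 to 3093 FPKM in knockouts. The defining marker Adgre1, listed as Emr1, was at 191 to 223 FPKM in controls and 35.0 to 96.0 FPKM in knockouts. All 12 endothelial markers rose, with sums of 152 to 174 against 316 to 479 FPKM, and 11 of 12 mature adipocyte markers rose, with sums of 9888 to 13022 against 21123 to 28152 FPKM. Of 8 epididymis or testis markers none reached the measured range, with sums of 0 to 0.272 FPKM in controls and 0.0844 to 2.90 FPKM in knockouts. Lcn8 was at 1.40 FPKM in knockout replicate 1, and Prm1 at 1.13 and Prm2 at 1.41 FPKM in knockout replicate 2. Of 4 measured neutrophil markers 2 fell, and all 10 listed ones had sums of 29.9 to 32.3 against 20.5 to 40.9 FPKM. In tissue RNA, fewer cells of a type and less RNA per cell cannot be told apart.

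Differences are given as log2 fold changes of knockout against control on the log2(FPKM + 0.5) scale, with limma's standard error, and a gene was called when its adjusted p was under 0.05. The 10 Clec genes that fell were Clec4d, Clec4n, Clec7a, Clec12a, Clec4a2, Clec4a3, Clec10a, Clec5a, Clec4a1 and Clec4b1, and the gene that rose was Clec14a. Over all 14383 tested genes 21.6% were called lower and 21.9% higher (43.5% in either direction), so calls were common in this comparison. Median log2 fold changes were −0.89 for the 18 Clec genes and −0.03 for all tested genes. The same 10 genes had 3 knockout values below all 3 control values; over all tested genes the groups were separated that way in 31% and the opposite way in 29.1% (60.1% either way). Grouped by usual cell source, all 9 measured macrophage and other myeloid members fell (median −1.41), beside a median of −1.17 for the macrophage markers. The part of the marker decrease in these calls was not tested beyond subtracting the marker mean. Of the 9 remaining members, Clec10a fell and Clec14a rose (median −0.03).

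In all 10 genes that fell, knockout replicate 3 had the lowest value, and in 9 of them control replicate 2 had the highest. Without knockout replicate 3 the counts were again 10 lower and 1 higher. They were 5 and 0 without control replicate 2, and 6 and 0 without control replicate 3. Over 14 alternative analyses, 5 genes were called lower every time: Clec4d, Clec4n, Clec7a, Clec12a and Clec5a.

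**Figure D1:**
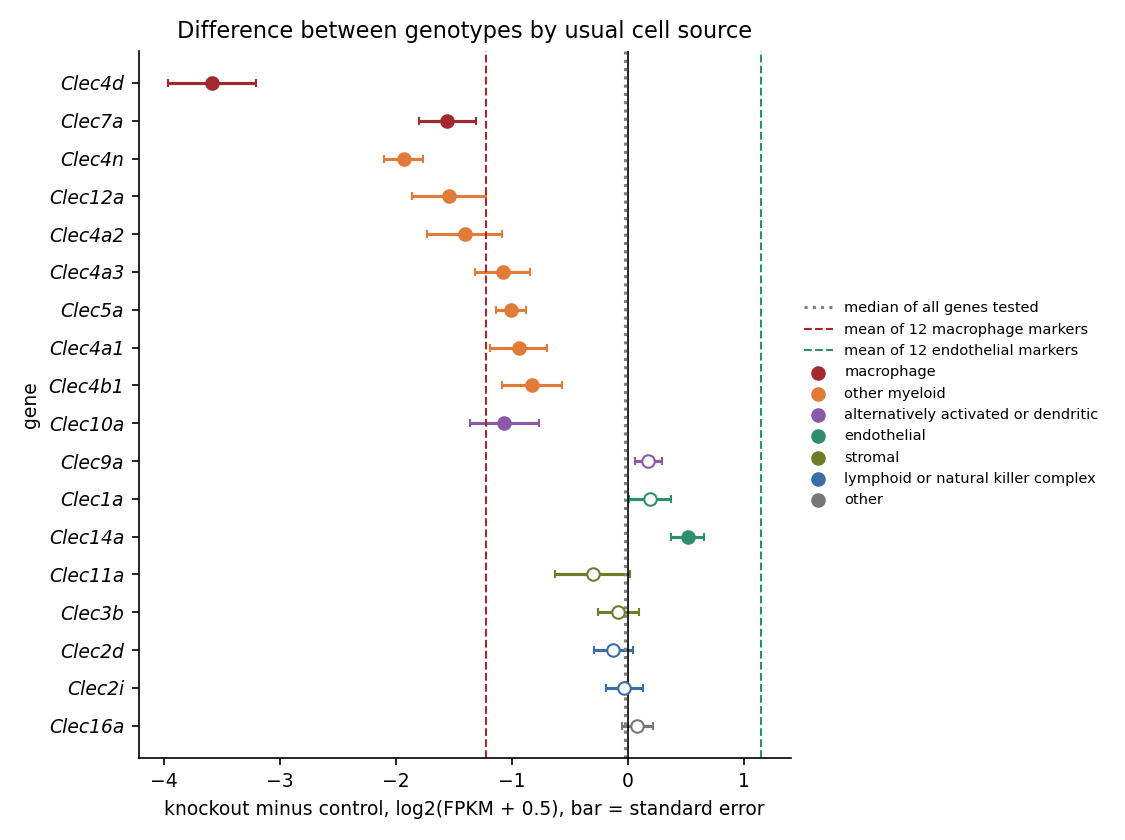
Log2 fold change, knockout minus control, of the 18 measured Clec genes (point, with limma's standard error as the bar), coloured by usual cell source and filled where the adjusted p was under 0.05; dashed lines are the mean differences of 12 macrophage (−1.22) and 12 endothelial markers (1.14), and the dotted line is the median of all tested genes. The values run from −3.58 for Clec4d to 0.51 for Clec14a, and the filled points left of 0 are the 10 genes that fell.

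Clec4d encodes MCL, a macrophage receptor for mycobacterial glycolipid that pairs with Mincle and signals through Fcer1g. It lies on chromosome 6 (ENSMUSG00000030144, 123262107 to 123275268, plus strand, mm10 coordinates of the table). Its level was 58.0, 105 and 85.9 FPKM in the controls and 9.89, 7.14 and 3.41 FPKM in the knockouts. The groups were far apart: the lowest control was several times the highest knockout. Knockout tissue held 8.21% of the control mean (83.0 ± 23.7 against 6.81 ± 3.25 FPKM, SD, n = 3 each). Its log2 fold change was −3.58 ± 0.38 (limma adjusted p = 0.00363, 95% interval −4.49 to −2.68), and only 2 of the 14383 tested genes had a more negative one.

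Clec7a encodes Dectin-1, the receptor for fungal beta-glucan, which carries its own activating motif. The measured row (ENSMUSG00000079293) lies on chromosome 6 at 129461591 to 129472777 on the minus strand. Control samples had 39.6, 46.2 and 36.0 FPKM and knockout samples 16.8, 16.4 and 8.71 FPKM. The groups did not overlap, and the knockout mean was 34.3% of the control mean. Clec7a fell by 1.56 ± 0.25 on the log2 scale (limma adjusted p = 0.00569). The second Clec7a identifier overlaps the first by 9645 bases on the same strand and reached at most 0.0522 FPKM, so reads shared by both rows may have been lost from either.

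Clec4e encodes Mincle, the partner of Clec4d, and falls just outside the measured range. Its values were 0.528, 0.416 and 0.523 FPKM in controls and 0.224, 0.260 and 0.140 FPKM in knockouts, from 17 to 74 reads. Every knockout value was below every control value. In the fit with no filter on low genes the log2 fold change was −0.48 ± 0.12 (limma adjusted p = 0.0375). The 0.5 FPKM added before taking logs is close to or above these values and shrinks that difference. By the means, knockout tissue held 42.6% of the control level. The fold change is therefore not comparable with those of members at higher levels. Just inside the range was Clec5a.

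The 7 other measured myeloid members all fell. Clec4n encodes Dectin-2, a receptor for fungal mannans that also uses Fcer1g. Its level was 3.83, 5.03 and 4.47 FPKM in controls and 0.999, 0.836 and 0.564 FPKM in knockouts. These groups were well separated at a low level, from 20 to 185 reads. Clec4n fell by 1.93 ± 0.17 on the log2 scale (limma adjusted p = 0.00339), and knockout tissue held 18.0% of the control mean.

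Clec5a encodes MDL-1, which signals through the adaptors Tyrobp and Hcst. It was at 1.58, 1.44 and 1.65 FPKM in controls and 0.583, 0.576 and 0.412 FPKM in knockouts. The knockout samples were all near the 0.5 FPKM limit and all below the controls. Clec5a fell by 1.01 ± 0.13 (limma adjusted p = 0.00390), and by 1.57 in limma-voom on the reads recovered from the FPKM values.

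Clec12a encodes MICL, an inhibitory receptor that recognises uric acid crystals and dead cells. Controls had 51.6, 52.2 and 48.0 FPKM and knockouts 22.8, 22.6 and 9.47 FPKM. The controls lay close together, and knockout replicate 3 was well below the other knockouts. Clec12a fell by 1.54 ± 0.32 (limma adjusted p = 0.0110), and by 1.14 without knockout replicate 3.

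Clec4a1, Clec4a2, Clec4a3 and Clec4b1 are neighbours that belong to the DCIR and DCAR family of myeloid receptors; Clec4a2 is an inhibitory receptor with an ITIM motif and Clec4b1 an activating one. Clec4a2 was at 29.3, 33.4 and 31.1 FPKM in controls and 15.3, 15.5 and 6.30 FPKM in knockouts, a log2 fold change of −1.41 ± 0.32 (limma adjusted p = 0.0145). Clec4a3 was at 37.3, 42.3 and 36.6 FPKM against 21.2, 23.1 and 11.9 FPKM, a log2 fold change of −1.08 ± 0.24 (limma adjusted p = 0.0128). In both genes the 3 knockouts were below the controls and replicate 3 was lowest.

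Clec4a1 was at 27.6, 28.5 and 26.0 FPKM in controls and 17.4, 17.4 and 8.92 FPKM in knockouts, a log2 fold change of −0.94 ± 0.25 (limma adjusted p = 0.0224). Clec4b1 was at 20.9, 22.7 and 21.5 FPKM against 14.0, 16.3 and 7.52 FPKM, a log2 fold change of −0.83 ± 0.26 (limma adjusted p = 0.0402). The groups did not overlap in either gene, and these were the smallest decreases of the called members. Without knockout replicate 3, Clec4b1 fell by 0.51 only.

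The calls of these 4 genes were lost when some single controls were left out. Without control replicate 2 the limma adjusted p was 0.0574 for Clec4a2, 0.0538 for Clec4a3, 0.0766 for Clec4a1 and 0.117 for Clec4b1. Without control replicate 3 it was 0.0516, 0.0631 and 0.102 for Clec4a2, Clec4a1 and Clec4b1, and without control replicate 1 it was 0.0617 for Clec4a1 and 0.0872 for Clec4b1. With no filter on low genes it was 0.0726 for Clec4b1. Clec4b1 shares 8.68% of its 50-base stretches with other transcripts (chiefly Clec4a2) and Clec4a2 shares 6.83%, so part of their reads cannot be assigned with certainty.

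**Figure D2:**
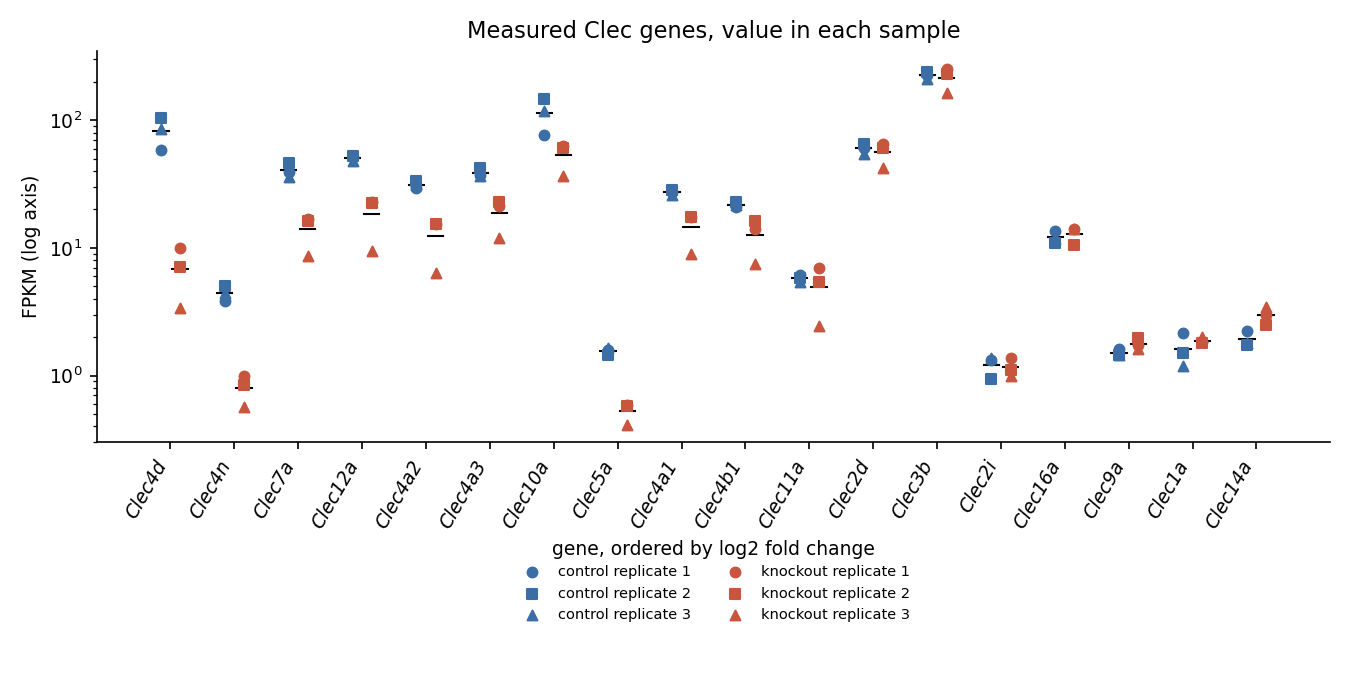
FPKM of the 18 measured Clec genes in each of the 6 samples, on a log axis, with controls in blue, knockouts in red and a black line at each group's mean. Clec3b is highest at 162 to 254 FPKM with overlapping groups, whereas the Clec4d controls of 58.0 to 105 FPKM lie far above its knockouts of 3.41 to 9.89 FPKM.

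Clec10a and Clec9a, members linked to alternatively activated macrophages and to dendritic cells, did not move alike. Clec10a encodes MGL1 (CD301a), a galactose-binding lectin of alternatively activated macrophages (ENSMUSG00000000318, chromosome 11, 70156197 to 70170834). Its level was 76.2, 147 and 117 FPKM in controls and 63.3, 60.8 and 36.3 FPKM in knockouts. Control replicate 1 lay nearest to the knockouts, but the groups did not overlap. Clec10a fell by 1.07 ± 0.30 on the log2 scale (limma adjusted p = 0.0273). It was not called without control replicate 2 (adjusted p = 0.0908), without control replicate 3 (0.0866) or with no filter on low genes (0.0505).

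Clec9a encodes DNGR-1, the receptor by which cross-presenting dendritic cells sense exposed actin of dead cells (ENSMUSG00000046080, chromosome 6, 129408862 to 129424764). It was at 1.62, 1.45 and 1.45 FPKM in controls and 1.73, 1.96 and 1.61 FPKM in knockouts. The groups overlapped at a low level. The log2 fold change of 0.17 ± 0.11 did not pass the test (limma adjusted p = 0.254, 95% interval −0.10 to 0.45). Clec9a overlaps Clec1b by 474 bases on the same strand. Of 10 measured dendritic cell markers, 3 fell and 2 rose, with a median log2 fold change of −0.17. The summed level of all 12 listed ones was 219 to 276 FPKM in controls and 98.8 to 164 FPKM in knockouts. Itgax alone averaged 138 FPKM in controls and 41.1 FPKM in knockouts, so the sum mainly follows that gene. Irf8 (−1.04 ± 0.20) and Wdfy4 (−1.11 ± 0.23) also fell, with limma adjusted p of 0.00934 and 0.0113. Zbtb46 (0.78 ± 0.12) and Naaa (0.21 ± 0.07) rose, with limma adjusted p of 0.00485 and 0.0484. Batf3, at −0.47, was not called (limma adjusted p = 0.215). Xcr1, a marker of the Clec9a-bearing type, was not measured.

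Mgl2, the neighbouring paralog of Clec10a that encodes CD301b, is not a Clec gene by name. It was at 8.45, 9.96 and 11.1 FPKM in controls and 18.3, 19.4 and 16.0 FPKM in knockouts. Mgl2 was higher in every knockout than in any control (log2 fold change 0.84 ± 0.12, limma adjusted p = 0.00451), the opposite direction to Clec10a. Clec10a shares 9.02% of its 50-base stretches with other transcripts, chiefly Mgl2, so some reads of either gene cannot be assigned with certainty.

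Clec14a and Clec1a are known from endothelium. Clec14a encodes a vessel surface protein that binds the matrix protein multimerin-2 (ENSMUSG00000045930, chromosome 12, 58264720 to 58269258, minus strand). It was at 2.21, 1.74 and 1.81 FPKM in controls and 2.97, 2.48 and 3.45 FPKM in knockouts. All 3 knockouts were above all 3 controls, at 154% of the control mean (1.92 ± 0.255 against 2.96 ± 0.484 FPKM, SD, n = 3 each). Clec14a rose by 0.51 ± 0.14 (limma adjusted p = 0.0270). The adjusted p was 0.0935 without control replicate 2, 0.0898 without control replicate 3 and 0.0599 without knockout replicate 1.

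Clec1a encodes MelLec, a receptor for fungal melanin. Controls had 2.16, 1.49 and 1.19 FPKM and knockouts 1.83, 1.80 and 1.99 FPKM. The knockout values fell inside the wide control range. Its log2 fold change of 0.19 ± 0.18 did not pass the test (limma adjusted p = 0.418, 95% interval −0.23 to 0.61).

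Clec3b and Clec11a are stromal and secreted. Clec3b encodes tetranectin, a matrix and plasma protein that binds plasminogen (ENSMUSG00000025784, chromosome 9, 123150946 to 123157430, plus strand), and had the highest FPKM of all Clec genes. Its values were 226, 239 and 210 FPKM in controls and 254, 231 and 162 FPKM in knockouts. Knockout replicate 1 was the highest of the 6 samples and knockout replicate 3 the lowest, so the groups overlapped. The log2 fold change was −0.09 ± 0.18 (limma adjusted p = 0.715, 95% interval −0.50 to 0.33).

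Clec11a encodes osteolectin, a growth factor for bone and blood progenitors (ENSMUSG00000004473, chromosome 7, 44303770 to 44306959, minus strand). It was at 6.09, 5.80 and 5.39 FPKM in controls and 6.97, 5.41 and 2.43 FPKM in knockouts. Only knockout replicate 3 was clearly below the controls. The log2 fold change was −0.31 ± 0.32 (limma adjusted p = 0.470, 95% interval −1.07 to 0.46), and 0.09 without knockout replicate 3. Among 12 fibroblast and progenitor markers, 2 rose and 2 fell.

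The lymphoid group is represented by Clec2d and Clec2i, ligands of the natural killer receptor family Klrb1. Clec2d was at 61.0, 65.6 and 54.8 FPKM in controls and 65.1, 60.5 and 42.6 FPKM in knockouts. Clec2i was at 1.31, 0.931 and 1.36 FPKM against 1.38, 1.11 and 0.989 FPKM. In both genes the groups overlapped, with log2 fold changes of −0.13 ± 0.17 and −0.03 ± 0.16 (limma adjusted p = 0.565 and 0.878, 95% intervals −0.53 to 0.27 and −0.41 to 0.34). No marker of B cells (5 measured) or T cells (8 measured) was called. Of 3 measured natural killer cell markers 1 was called lower, Ncr1. Its level was 0.567 to 1.01 FPKM in controls and 0.218 to 0.397 FPKM in knockouts. Ncr1 thus met the 0.5 FPKM limit through the controls only, so little can be read from its call. Clec2i overlaps BC035044 on the opposite strand, and how the counting treated strand is not given.

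Clec16a carries the family name but acts inside cells in endosomal traffic and mitophagy. It was at 13.5, 11.0 and 11.7 FPKM in controls and 14.0, 10.5 and 13.9 FPKM in knockouts. The groups overlapped (log2 fold change 0.08 ± 0.13, limma adjusted p = 0.654, 95% interval −0.24 to 0.40). None of the 7 members that did not pass the test was called in any of the 14 alternatives.

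The 16 rows that were not measured did not exceed 0.733 FPKM in any sample. That highest value was control replicate 1 of Clec2f, a gene at 0.205 to 0.733 FPKM in controls and 0 to 0.262 FPKM in knockouts. Clec12b (0.211 to 0.517 FPKM), Clec4a4 (0.0976 to 0.481 FPKM), the platelet receptor Clec1b (0.0971 to 0.263 FPKM), the Kupffer cell lectin Clec4f (0 to 0.211 FPKM) and Clec4g (0.0235 to 0.210 FPKM) did not reach the limit in enough samples. With no filter on low genes, 14 of the 16 rows could be fitted, and Clec4e was the only one called. Clec2j and Clec3a had no read in any sample, where 3 reads would give up to 0.230 and 0.201 FPKM. Clec2g, Clec2l, Clec2e, Clec2h, Clec18a, Clec4b2 and the second Clec7a identifier complete the list together with Clec4e. Lying below the limit does not show that these genes are absent.

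Of the 34 Clec rows, 26 lie on chromosome 6, and 13 of these were measured. They form 2 clusters and 3 single positions. The Dectin-2 cluster, from 122921848 to 123289870, holds 9 Clec genes, and 6 of 6 measured members fell (Clec4a1, Clec4a2, Clec4a3, Clec4b1, Clec4d and Clec4n, median log2 fold change −1.24). The Dectin-1 and natural killer complex, from 128652438 to 129472777, holds 14 Clec rows, of which Clec12a and Clec7a fell and 4 others (Clec1a, Clec2d, Clec2i and Clec9a) did not pass the test (median −0.08). Among its 15 other genes 6 were tested and none was called, the largest difference being −0.68 for 2310001H17Rik (limma adjusted p = 0.0683). Clec7a and Clec9a are close neighbours there, with log2 fold changes of −1.56 and 0.17. The difference between the clusters itself was not tested.

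**Figure D3:**
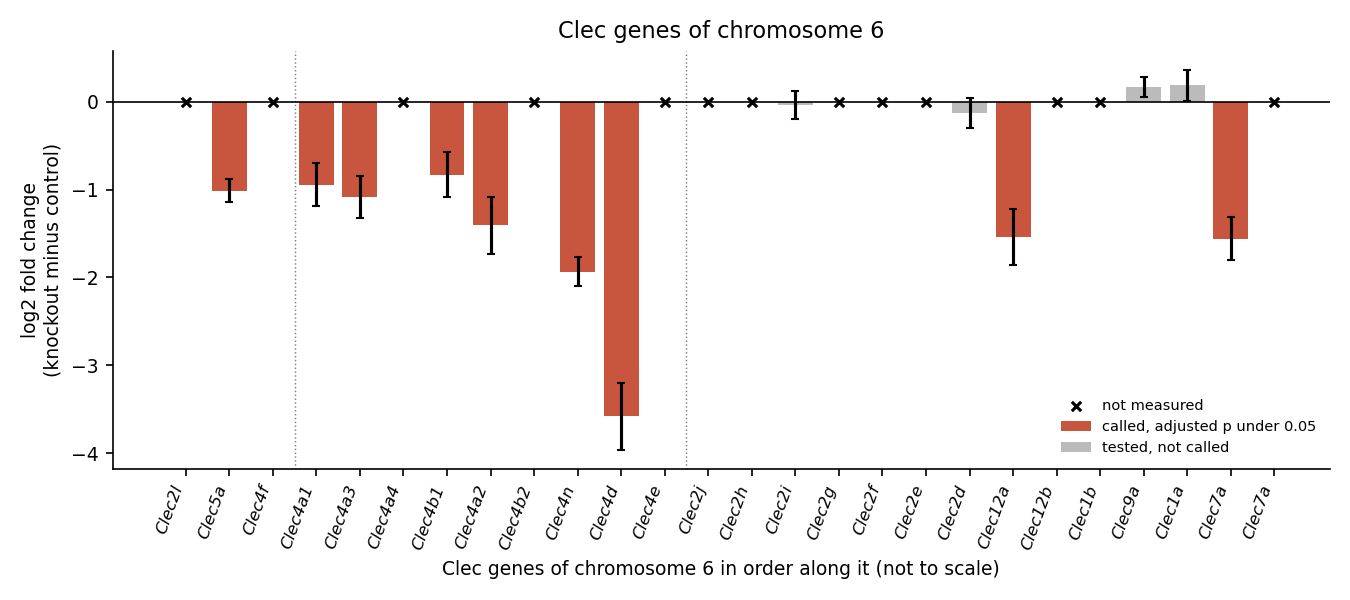
Log2 fold change, knockout minus control, of the chromosome 6 Clec genes in their order along the chromosome (bars red where called and grey where not, with limma's standard error; crosses for unmeasured genes; dotted lines between the single positions, the Dectin-2 cluster and the second cluster). The 6 measured genes of the Dectin-2 cluster lie between −3.58 and −0.83, whereas those of the second cluster run from −1.56 to 0.19.

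Promoters are shown for the member that fell most, for the beta-glucan receptor and for the member that rose, because a myeloid factor, PU.1, is known to bind purine-rich sites near myeloid genes. The 250 bases before the start of transcription come from RefSeq (GRCm38.p6), written 5′ to 3′ on the strand of the gene. Clec4d is chr6:123261857-123262106 (plus strand), Clec7a is chr6:129472780-129473029 (minus strand) and Clec14a is chr12:58269259-58269508 (minus strand). Capitals mark GAGGAA or its reverse complement TTCCTC.
Clec4d: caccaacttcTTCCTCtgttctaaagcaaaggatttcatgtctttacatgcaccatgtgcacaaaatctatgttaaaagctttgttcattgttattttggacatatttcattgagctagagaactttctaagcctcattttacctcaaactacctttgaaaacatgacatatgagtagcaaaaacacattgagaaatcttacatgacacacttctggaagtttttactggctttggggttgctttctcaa
Clec7a: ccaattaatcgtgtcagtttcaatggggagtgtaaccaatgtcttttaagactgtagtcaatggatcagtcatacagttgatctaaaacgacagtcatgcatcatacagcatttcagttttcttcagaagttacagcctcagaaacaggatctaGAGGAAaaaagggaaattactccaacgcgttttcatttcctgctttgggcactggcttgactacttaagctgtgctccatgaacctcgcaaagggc
Clec14a: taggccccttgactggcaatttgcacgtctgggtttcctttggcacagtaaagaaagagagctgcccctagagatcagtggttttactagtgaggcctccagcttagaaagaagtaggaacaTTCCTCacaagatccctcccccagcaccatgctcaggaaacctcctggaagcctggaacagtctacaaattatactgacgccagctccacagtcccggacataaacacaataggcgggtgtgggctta

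The short core GAGGAA was found on either strand in 7 of the 8 fallen Clec genes with an entry and in 3 of the 6 other measured ones, against 25.9% of all 27025 genes in the table and 26.3% of the tested ones. It was searched after the longer core GAGGAAGT, which contains it, had matched none of the 14 Clec genes and 2.79% of all 27025 genes. The AP-1 letters TGACTCA and TGAGTCA also matched none of the 14, and 5.16% of all 27025 genes. The 14 genes are those of 18 with an entry; Clec4n, Clec10a, Clec3b and Clec1a have none. Clec14a, which rose, and Clec4d, which fell, both hold 1 match of the short core. The matches of the neighbours Clec4a1 and Clec4a3 lie in nearly the same surrounding bases, so the 8 genes are not independent. Clec4a3 has a match at only some of its listed starts. Whether the letters go with the direction of change was not tested.

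To set the myeloid members beside the macrophage markers, the mean log2 level of the 12 markers was subtracted from each gene in each sample. That mean was 7.30 ± 0.08 in controls and 6.08 ± 0.60 in knockouts (SD, n = 3 each), a difference of −1.22. Clec4d was −1.39, −0.67 and −0.83 from it in controls and −3.11, −3.43 and −3.43 in knockouts. Its level thus lay further below the markers in every knockout than in any control, by −2.36 on the log2 scale. With each gene's own spread the standard error was 0.24 and the limma adjusted p 0.0482, where 1.04% of all tested genes were called lower. The exact two-sided permutation test over samples gave p = 0.1, the smallest that 3 against 3 samples allow. With moderated spread the limma adjusted p was 2.11e-09, which is too small because all genes share the subtracted mean; by that test 43 genes (0.299%) were lower, and Clec4d was the only Clec gene among them.

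The other myeloid members moved much closer to the marker mean. Relative to it, the differences were −0.71 for Clec4n, −0.34 for Clec7a, −0.32 for Clec12a and −0.19 for Clec4a2. They were 0.14 for Clec4a3, 0.15 for Clec10a, 0.21 for Clec5a, 0.28 for Clec4a1 and 0.39 for Clec4b1. None of these 9 passed with moderated spread, with limma adjusted p from 0.0648 for Clec4n to 0.715 for Clec4a3. Moderation gave Clec7a a standard error of 0.361, against 0.084 with its own spread, so for that gene the moderated test was the stricter one. The Clec4n difference moved with the settings: it was −1.13 with a pseudocount of 0.1 (limma adjusted p = 0.00600), −1.25 in limma-voom on the recovered reads (0.0387) and −0.39 with a pseudocount of 1 (0.299). Without knockout replicate 3, Clec4n (−0.92), Clec7a (−0.38) and Clec12a (−0.26) were lower than the marker mean and Clec4a1 (0.24) and Clec4b1 (0.37) higher, with limma adjusted p from 0.000252 for Clec4n to 0.0180 for Clec4a1. Clec5a turned to −0.19 with a pseudocount of 0.1, −0.36 in limma-voom and −0.05 without knockout replicate 3, and Clec10a to −0.09 without control replicate 1, none of them called. With each gene's own spread, Clec4n (limma adjusted p = 0.0496), Clec7a and Clec12a (both 0.0482) were lower than the marker mean, and Clec4a1 and Clec4b1 (both 0.0482) higher. Over all tested genes 63.3% were higher than the marker mean by that test. By the moderated test 9 of the 18 Clec genes were called in either direction, against 83.1% of all tested genes.

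**Figure D4:**
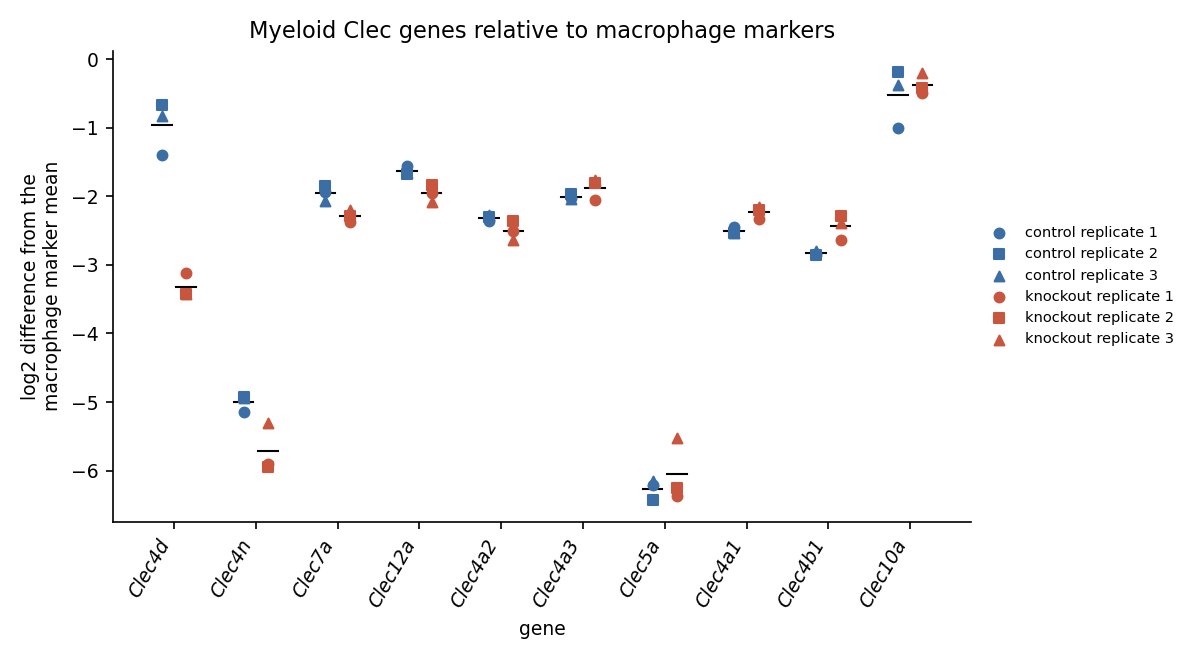
Log2 level of each fallen Clec gene minus the mean of 12 macrophage markers in the same sample (controls blue, knockouts red, black line at the group mean). Clec4d moves from −1.39 to −0.67 in controls down to −3.43 to −3.11 in knockouts, and most other genes shift by far less.

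The same subtraction was made for the 2 endothelial genes, whose 12 markers averaged 3.49 ± 0.10 in controls and 4.64 ± 0.27 in knockouts on the log2 scale. Clec14a was −2.12, −2.37 and −2.17 from that mean in controls and −2.85, −2.78 and −2.93 in knockouts. It therefore rose by less than the markers, by a difference of −0.63 (own-spread standard error 0.09, limma adjusted p = 0.00989). Clec1a was lower relative to the markers by −0.95 (own-spread limma adjusted p = 0.0129). For both the exact permutation p was 0.1, the smallest possible. Of all tested genes 84.9% were lower relative to the endothelial markers by the own-spread test, so this holds for most genes; by the moderated test 18 of 18 Clec genes and 88% of all genes were called. The Clec14a difference had a moderated limma adjusted p of 0.0154, and 0.0580 with the replicate number as a block. The limma adjusted p was 0.0886 without control replicate 1, 0.0783 without control replicate 3 and 0.0572 without knockout replicate 1. Relative to the stromal markers, Clec3b differed by 0.16 and Clec11a by −0.06, without passing the test (limma adjusted p = 0.552 and 0.862). By that test 11 of the 18 Clec genes were called against the stromal markers, and 25.2% of all genes; with each gene's own spread these were 4 and 4.93%.

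Genes through which Clec receptors signal were described from a list of 40, of which 35 were tested. Of these, 29 were lower and 1 was higher, where 21.6% of all tested genes were called lower and 21.9% higher. Their median log2 fold change was −1.13, against −0.03 over all tested genes. The list was chosen with earlier results of these data known, so its counts are a description only. All 3 adaptors fell. Fcer1g, the partner of Clec4d, Clec4e and Clec4n, was at 311, 347 and 330 FPKM in controls and 153, 145 and 62.6 FPKM in knockouts (log2 fold change −1.56 ± 0.33, limma adjusted p = 0.0117). Tyrobp and Hcst, the partners of Clec5a, fell by 1.70 ± 0.42 and 1.17 ± 0.26 (limma adjusted p = 0.0191 and 0.0131).

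Of 16 kinases and scaffold proteins 14 fell and none rose. Those with the smallest p were the Src family kinases Fgr (−1.21 ± 0.14) and Lyn (−0.88 ± 0.14), Bcl10, the partner of Card9 (−0.66 ± 0.10), and the phospholipase Plcg2 (−1.08 ± 0.18), with limma adjusted p of 0.00370, 0.00537, 0.00543 and 0.00638. Syk, the kinase of the pathway, fell by 1.10 ± 0.31 and Card9 by 1.13 ± 0.23 (limma adjusted p = 0.0296 and 0.0106). Malt1 and Src did not pass the test. Among the inhibitory phosphatases, which act behind Clec12a and Clec4a2, Ptpn6 and Inpp5d fell by 1.61 ± 0.33 and 1.16 ± 0.28. Ptpn11, which is expressed widely, rose by 0.61 ± 0.08 (limma adjusted p = 0.00426).

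Of 6 nuclear factors 4 fell, among them Nfkb1 (−0.44 ± 0.09) and Irf5 (−1.36 ± 0.29), and Rela and Relb did not pass the test. Of 12 genes that are outputs of these receptors 7 were measured and 6 fell. The chemokine gene Ccl3 fell by 2.23 ± 0.32, Egr2 by 1.93 ± 0.35, Cxcl2 by 1.09 ± 0.20 and Tnf by 0.98 ± 0.15 (limma adjusted p = 0.00459, 0.00778, 0.00761 and 0.00541). Il1b, at −0.15, was not called (limma adjusted p = 0.604). Most of the listed signalling genes are expressed by macrophages in general, whose markers fell alongside, and the share of that in these values was not tested.

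**Figure D5:**
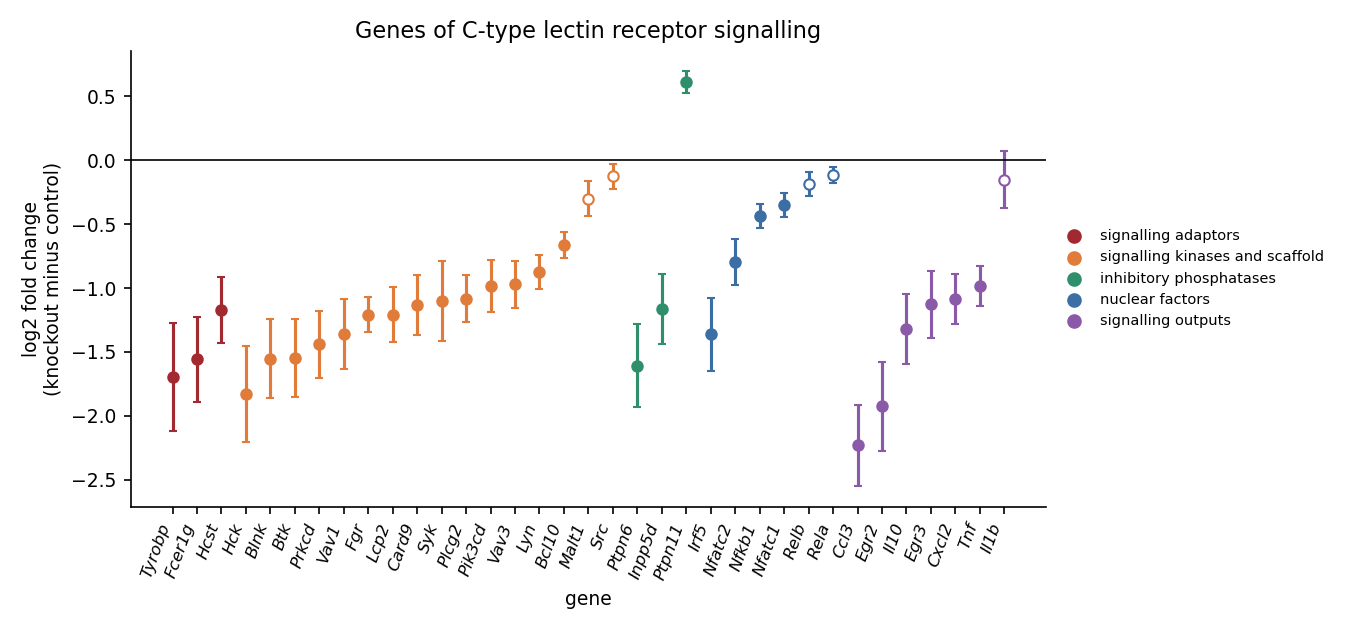
Log2 fold change, knockout minus control, of the 35 tested genes of C-type lectin signalling (point, with limma's standard error as the bar), ordered and coloured by role and filled where the adjusted p was under 0.05. Ptpn11 at 0.61 is the only filled point above 0, and Ccl3 at −2.23 is the lowest.

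C-type lectin genes with other names went in both directions: of 28 tested in a list of 38, 4 rose and 5 fell. Over all tested genes 21.9% were called higher and 21.6% lower, so these counts do not mark out the list. Its median log2 fold change was −0.09. Mrc1, the mannose receptor of macrophages, fell by 1.30 ± 0.26 (limma adjusted p = 0.00963), and Layn, a hyaluronan receptor, fell by 1.90 ± 0.25 from 22.9 to 5.77 FPKM (limma adjusted p = 0.00404). Cd209c, a gene of the DC-SIGN family, rose by 0.79 ± 0.14 (limma adjusted p = 0.00667). It lay near the 0.5 FPKM limit, at 0.398 to 0.525 FPKM in controls and 1.05 to 1.39 FPKM in knockouts. Mgl2, given above, Thbd (0.38 ± 0.11) and Cd209d (0.55 ± 0.17) also rose. For Thbd and Cd209d the limma adjusted p was 0.0281 and 0.0373.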

How the data were processed

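Libraries were made from Trizol RNA with the NEBNext Ultra kit, per the labels' protocols. CASAVA, FastQC, STAR 2.5, HTSeq 0.6.1 and mm10 are named, per the submitters' processing notes; strand setting and annotation release are not given there. The authors deposited FPKM per gene, and gene length in bases was used as deposited. FPKM times length summed to 1000000 per sample, and every value was a whole number of reads within 0.01, which gave the depth. At this depth 3 reads on a 2 kb gene are 0.0489 to 0.0594 FPKM, for counting error only. Replicates differed by more than counting noise (chi-square per degree of freedom 16.7 to 107), so none was counted as a repeat. Names turned into dates (27) were restored by identifier.

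The 14383 genes that reached 0.5 FPKM in at least 3 samples were fitted as log2(FPKM + 0.5) with limma 3.58.1 (R 4.3.3, statmod 1.5.0; trend, robust moderation, two-sided) and Benjamini-Hochberg adjustment over all of them. All Clec rows are named. A gene of the signalling list is not reported here. The members and gene lists were chosen with earlier results of these data known. After subtracting a marker mean, moderated p-values cannot be taken at face value. Relative to macrophage markers they were far below the own-spread ones for Clec4d and far above them for Clec7a. A fit with each gene's own spread was therefore added after seeing the data, with an exact permutation test. Alternatives were pseudocounts of 0.1 and 1, a filter at 1 FPKM, no filter, 2 scalings, a replicate block, limma-voom on the recovered reads and each sample left out. The procedure was tested on simulated data, but the settings and outcome are not given here, so no error rate can be read from that. Same-numbered samples did not deviate together (r of −0.24, 0.03 and −0.18), so numbers were not treated as pairs. Promoter letters were searched with Python 3.11.15.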

Additional observations from a re-analysis of the deposited data

How the results depend on the processing

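No called result reversed direction, and 4 of the 7 uncalled Clec genes changed sign in some alternative. Of the single-gene alternatives 557 gave the same call, 12 a gained call (all relative to macrophage markers) and 27 a lost one. With each sample left out in turn, all genes called ranged from 3371 to 5958 (6253 with all samples), Clec genes lower from 5 to 10 and Clec genes higher from 0 to 1. Relative to macrophage markers, Clec genes called in either direction were 9, and 21 with no filter, where more genes enter; leaving out samples gave 7 to 14. Relative to endothelial markers they were 18, and 32 with no filter, and leaving out samples gave 17 to 18. Relative to stromal markers they were 11, and 4 without moderation; leaving out samples gave 5 to 11. The cause of these shifts was not tested beyond the added genes and the smaller samples. With the replicate number as a block, 4581 genes, 10 lower and 1 higher Clec genes were called; the pairing is only a shared number, and the block changed no call of a single Clec gene in the direct comparison. A quasi-likelihood count test, planned for a table of counts, was not run; limma-voom on the recovered reads gave 10 lower and 1 higher Clec genes. With no filter 9 Clec genes were lower, Clec4e among them. Rows with few reads are limited by depth.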
